A study of Rattus norvegicus with 10 samples.

Results

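The glucocorticoid receptor, the enzymes that make or remove its ligand and 7 genes that the receptor switches on were followed in fetal rat hearts, as 10 genes picked by symbol from the 18025 genes of the expression table. Hearts were taken at embryonic day 19.5 from wild-type fetuses of Sprague-Dawley dams aged 3 months. Dams of the hyperglycemia (HG) group received streptozotocin (STZ), which kills insulin-producing cells, in citric acid buffer by intraperitoneal injection on 3 days, and had a non-fasting blood glucose above 16 mM when measured 7 days later. Dams of the control (CON) group received the buffer alone, and dams of both groups were mated with normoglycemic males. Each group had 5 libraries of stranded mRNA. One passage of the sources places STZ before pregnancy and another describes mating first, so the length of the exposure is not settled here. The labels call the samples heart tissue, whereas a figure legend speaks of isolated cardiomyocytes, and markers of blood, endothelium and fibroblasts were present in every library. The sex of the fetuses is not given, and the labels do not tie libraries to separate dams or litters, so that every p-value below measures only the spread between these libraries.

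Glucocorticoids reach the fetus from its own adrenal gland and, in part, from the mother, and they rise shortly before birth, when they help the heart, lung and liver to mature. The receptor waits in the cytoplasm on the chaperone Hsp90, enters the nucleus once it binds the hormone, and activates genes whose control regions carry its response element. Within a tissue the ligand is set by a pair of enzymes, of which 11-beta-hydroxysteroid dehydrogenase type 1 (Hsd11b1) regenerates active hormone and type 2 (Hsd11b2) inactivates it. Among the induced genes are Fkbp5, a cochaperone that lowers the receptor's affinity for hormone and so closes a feedback loop, the transcription regulators Zbtb16 (PLZF), Tsc22d3 (GILZ), Per1, Klf9 and Klf15, and the kinase Sgk1. Many of them answer to other signals as well, such as the clock (Per1), insulin (Sgk1) or feeding (Klf15), so that their mRNA is not a measure of hormone.

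Of the 10 genes, 8 were lower in HG hearts, none was higher, and the 2 steroid enzymes did not pass the test. Zbtb16 had the largest decrease, from a mean of 2.98 to 0.844 FPKM. Klf15, Per1 and Fkbp5 were lower by 26.1% to 32.8%, Sgk1, Tsc22d3 and Klf9 by 17.6% to 21.98%, and the receptor itself, Nr3c1, by 12.4%. FPKM is the number of reads per kilobase of gene and library size, so levels of different genes can be compared, and between libraries it is relative to the other mRNAs of each library. The test was limma's moderated linear model on log2(FPKM + 0.1), with p-values adjusted over all genes that averaged 0.1 FPKM or more by the Benjamini-Hochberg method, and a gene was called at an adjusted p under 0.05.

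These counts stand against a broad shift in the whole table. They also come from genes chosen, like the lists below, with earlier results of these data known. Shares of called genes therefore describe each set and do not test it. Of 14542 genes tested, 40.1% were called, 11.8% as lower and 28.4% as higher in HG. The 5 libraries of HG all lay below the 5 of CON in 8.12% of genes and in 7 of the 10 genes described here. The study's own threshold adds a fold change above 2 in either direction, set there on the calls of another test, DESeq. Set on the limma calls here, it was passed by 1.94% of genes and by 1 of the 10, Zbtb16, which are not the study's counts. The median log2 fold change was 0.09 over all genes and -0.34 over the 10, and each of the 10 lay below the median of all genes. Under a median-of-ratios scaling, which brings the median of all genes to 0.01, 47.1% of called genes were higher in place of 70.7%, and under quantile normalization 53.1%. The same 8 of the 10 genes were called as lower under both.

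The depth on genes was 17639895 to 18240006 reads in CON and 16672876 to 19109844 reads in HG. Markers of heart muscle moved in the same direction as the 8 genes. Of 8 cardiomyocyte markers, 6 were lower in HG and none was higher, and the median of their log2 fold changes was -0.30. Their summed level ran from 26340 to 27770 FPKM in CON and from 21360 to 24480 FPKM in HG, with no overlap. Smooth muscle markers summed to 736 to 859 FPKM in CON and to 950 to 1197 FPKM in HG, leukocyte markers to 25.2 to 31.6 and 30.0 to 39.5, fibroblast markers to 1724 to 2010 and 1556 to 1785, and endothelial markers to 255 to 280 and 263 to 289. Single markers did not all move with these sums. Of 5 smooth muscle markers, 3 were called higher and 1 lower (Rgs5, log2 fold change -0.31, groups apart). Of 8 fibroblast markers, 4 were called lower and 2 higher (Pdgfra, 0.29, and Tcf21, 0.25, groups apart in both). Red cell markers summed to 10330 to 19540 FPKM in CON and to 8194 to 11550 FPKM in HG, a sum carried by adult globins, while the embryonic globins Hbz and Hbe1 were higher in HG (log2 fold change 4.07 and 2.24), as was Hbe2, all with groups apart. Liver markers reached 85.5 FPKM in CON replicate 3, against 3.15 to 9.10 FPKM in the other CON libraries and 1.33 to 2.71 FPKM in HG, and adrenal cortex markers, of which 3 of 5 were in the table, stayed at or under 0.0752 FPKM in sum. Without CON replicate 3, 7 of the 10 genes were called, all but Klf9 of the 8. In tissue of many cell types, fewer cells of a type and less RNA per cell cannot be told apart.

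To set the 10 genes against the heart muscle markers directly, every library was divided by the geometric mean of the 8 markers, a step added after the data were seen. It raised the median log2 fold change of all genes to 0.40, with 10839 of 14542 genes called and 95.8% of these higher, and the 10 genes still all lay below that median. On this scale Zbtb16 (-1.41) and Klf15 (-0.26) remained lower in HG. The log2 fold changes of Per1 (-0.13), Fkbp5 (-0.12), Sgk1 (-0.04), Tsc22d3 (-0.0036) and Klf9 (0.04) did not pass the test, and Nr3c1 turned to 0.13 (limma, adjusted p = 0.0399). As 6 of the 8 markers were themselves lower in HG, the division raises every gene in HG against CON. It cannot tell less muscle from less marker mRNA per cell, and the part of muscle content in the decreases was not tested.

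**Figure D1:**
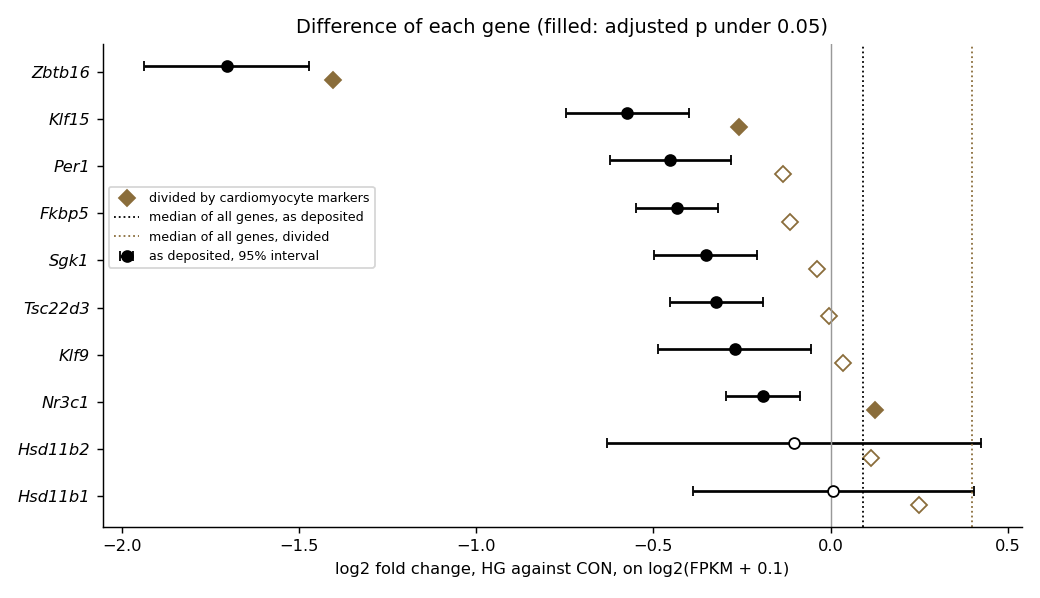
Log2 fold change of each of the 10 genes, HG against CON, as deposited (circles, with 95% intervals) and after each library was divided by its cardiomyocyte markers (diamonds), with the median of all genes on each scale as a dotted line and filled symbols for an adjusted p under 0.05. As deposited, 8 genes are called, from -1.70 for Zbtb16 to -0.19 for Nr3c1, and after the division Zbtb16, Klf15 and Nr3c1 are called, Nr3c1 in the opposite direction.

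Sequence upstream of the transcription start was looked up for the receptor's response element. The 7 induced genes were listed by symbol and not by such an element. RefSeq's promoter table for build GRCr8 held 12 promoters of 7 of the genes, with 3 for Tsc22d3, 3 for Sgk1 and 2 for Nr3c1, and it had no entry for Hsd11b1, Hsd11b2 or Zbtb16. Each window was the 250 bases before the start, searched on both strands. The full palindrome of the response element (AGAACA, any 3 bases and TGTTCT) was in none of the 12 and in 0.012% of all 33469 promoters. Its core ACANNNTGT was in 1 of the 12, the middle of the 3 of Tsc22d3, and in 5.81% of all. The E-box CACGTG, bound by clock factors, was in 1 of the 12, that of Klf15, and in 5.59% of all. A core lies within every full palindrome, and none of the 12 held both a core and an E-box. The promoters of Klf15 and Tsc22d3 are shown for these matches, set in capitals, and that of Fkbp5 as the feedback gene with no match. Coordinates are those of GRCr8, which is not the build the submitters name, and each sequence reads towards the start.
Klf15, chr4:124522765-124523014 (plus strand): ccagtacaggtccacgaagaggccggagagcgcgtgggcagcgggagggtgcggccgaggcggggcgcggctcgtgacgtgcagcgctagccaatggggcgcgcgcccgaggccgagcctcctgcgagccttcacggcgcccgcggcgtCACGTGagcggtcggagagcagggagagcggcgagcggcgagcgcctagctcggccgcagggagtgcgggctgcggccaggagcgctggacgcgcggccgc
Tsc22d3, chrX:109065431-109065680 (minus strand): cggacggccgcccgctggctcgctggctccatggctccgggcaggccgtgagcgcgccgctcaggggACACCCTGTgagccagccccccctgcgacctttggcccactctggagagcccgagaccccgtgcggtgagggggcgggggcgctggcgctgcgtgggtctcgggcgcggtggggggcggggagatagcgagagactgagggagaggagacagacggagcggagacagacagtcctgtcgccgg
Fkbp5, chr20:6543556-6543805 (minus strand): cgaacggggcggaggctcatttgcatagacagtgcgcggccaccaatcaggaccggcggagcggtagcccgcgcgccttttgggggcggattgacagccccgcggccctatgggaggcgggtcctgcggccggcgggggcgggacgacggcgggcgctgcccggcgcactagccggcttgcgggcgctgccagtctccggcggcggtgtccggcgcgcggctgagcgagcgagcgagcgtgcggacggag
The E-box of Klf15 lay 101 to 96 bases before the start and the core in Tsc22d3 183 to 175 bases before it. Both genes were lower in HG, as was Fkbp5, whose window held no match. Sites farther from the start were not searched.

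The receptor was among the better measured of the 10 genes, with 1491 to 1833 reads in a library. Nr3c1 (NCBI Gene 24413) stood at 11.9, 12.5, 12.8, 12.4 and 12.3 FPKM in CON replicates 1 to 5 and at 10.03, 11.1, 10.7, 10.7 and 11.7 FPKM in HG replicates 1 to 5. The groups did not overlap, although HG replicate 5 (11.68 FPKM) came close to CON replicate 1 (11.89 FPKM). The log2 fold change was -0.19 ± 0.05 (SE, 95% interval -0.29 to -0.09, limma, adjusted p = 0.00731), the smallest decrease among the called genes.

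Nr3c2, the mineralocorticoid receptor, binds the same hormones and was measured beside it. Its level was 0.875, 0.924, 0.927, 0.898 and 0.830 FPKM in CON replicates 1 to 5 and 0.594, 1.01, 0.789, 0.822 and 0.760 FPKM in HG. The HG libraries were more spread and enclosed the CON range (log2 fold change -0.16, 95% interval -0.44 to 0.12, limma, adjusted p = 0.342). Within a library, Nr3c1 exceeded Nr3c2 by 3.66 ± 0.05 on the log2 scale in CON libraries and by 3.63 ± 0.21 in HG libraries (SD, n = 5 per group). The difference was -0.03 (interval -0.25 to 0.18 from inverting the test, two-sided exact permutation test, p = 0.786, adjusted p = 0.786 over 3 ratios). At the pseudocount of 0.1, a shift between the 2 receptors of more than 0.25 on the log2 scale lies outside the interval. The difference depended on the pseudocount, at -0.098 with 1 and -0.0105 with 0.01 (exact permutation test, p = 0.0794 and 0.905).

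Both steroid enzymes were near the floor of these libraries. Hsd11b1 (NCBI Gene 25116) measured 0.337, 0.369, 0.274, 0.196 and 0.404 FPKM in CON replicates 1 to 5 and 0.407, 0.309, 0.254, 0.309 and 0.290 FPKM in HG replicates 1 to 5, on 17 to 37 reads. Hsd11b2 (NCBI Gene 25117) measured 0.207, 0.235, 0.335, 0.206 and 0.212 FPKM in CON and 0.337, 0.234, 0.0928, 0.152 and 0.322 FPKM in HG, on 3 to 12 reads. Neither enzyme separated the groups, and single libraries of HG held both the highest and the lowest values of Hsd11b2. The log2 fold change of Hsd11b1 was 0.01 (95% interval -0.39 to 0.40, limma, adjusted p = 0.978) and that of Hsd11b2 was -0.10 (95% interval -0.63 to 0.42, limma, adjusted p = 0.763). At these few reads, any difference inside these intervals is compatible with the values. The log2 ratio of Hsd11b1 to Hsd11b2 averaged 0.28 ± 0.39 in CON libraries and 0.39 ± 0.40 in HG libraries (SD, n = 5 per group, interval of the difference -0.50 to 0.71, two-sided exact permutation test, p = 0.659, adjusted p = 0.786 over 3 ratios).

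Fkbp5 (NCBI Gene 361810), the feedback cochaperone, stood at 12.9, 13.8, 13.7, 13.7 and 14.7 FPKM in CON replicates 1 to 5 and at 10.5, 10.3, 9.9996, 10.9 and 9.22 FPKM in HG replicates 1 to 5. The highest HG library lay 1.98 FPKM below the lowest CON library, and the group SDs were 0.631 and 0.629 FPKM. Its log2 fold change was -0.43 ± 0.05 (SE, 95% interval -0.55 to -0.32, limma, adjusted p = 7.87e-05). Its paralog Fkbp4, which takes its place on the receptor complex and favours transport to the nucleus, was 88.7, 90.0, 89.6, 90.0 and 78.2 FPKM in CON replicates 1 to 5 and 72.8, 72.1, 72.1, 77.8 and 67.7 FPKM in HG. CON replicate 5 was the lowest of CON by a wide gap, yet the groups stayed apart (log2 fold change -0.27 ± 0.05, SE, limma, adjusted p = 9.93e-04).

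Fkbp5 was lower than Fkbp4 in every library, and more so in HG. The log2 ratio of Fkbp5 to Fkbp4 averaged -2.66 ± 0.14 in CON libraries and -2.82 ± 0.03 in HG libraries (SD, n = 5 per group). The difference was -0.17 (interval -0.30 to -0.07, two-sided exact permutation test, p = 0.00794, the smallest 5 against 5 allows, adjusted p = 0.0238 over 3 ratios), with all 5 HG libraries below all CON libraries. CON replicate 5 set much of the size, and without it the difference was -0.10 (exact permutation test, p = 0.00794). Fkbp5 was also compared with the receptor, a ratio added after the data were seen. It was above Nr3c1 in all 5 CON libraries (log2 ratio 0.15 ± 0.06, SD, n = 5) and below it in 3 of 5 HG libraries (-0.09 ± 0.16, SD, n = 5). The means differ by -0.24, with all 5 HG libraries below all 5 of CON, and as the pair was picked after these values were seen no test is given.

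**Figure D2:**
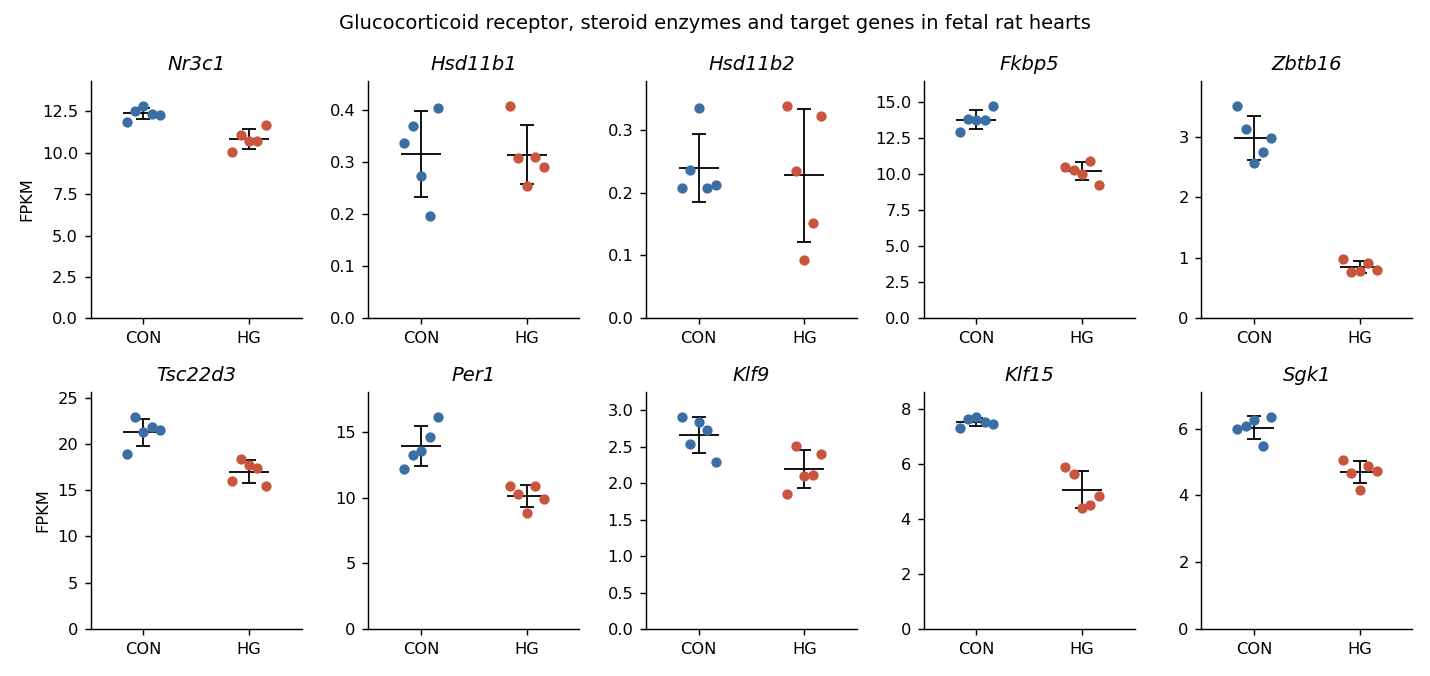
FPKM of the 10 genes in each library (points, replicates 1 to 5 from left to right) with the mean and SD of each group (n = 5), each axis from 0. In 7 genes every HG library is below every CON library, Zbtb16 shows the widest gap (CON at least 2.57 FPKM, HG at most 0.973 FPKM), and the groups overlap in Klf9, Hsd11b1 and Hsd11b2.

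Zbtb16 (NCBI Gene 353227) encodes PLZF, a zinc finger repressor and one of the genes most steeply induced by glucocorticoids in many cells. Its level was 3.50, 3.13, 2.57, 2.74 and 2.97 FPKM in CON replicates 1 to 5 and 0.973, 0.764, 0.773, 0.917 and 0.796 FPKM in HG replicates 1 to 5. The groups were well apart, with at least 358 reads in a CON library and at most 147 in an HG library. The log2 fold change was -1.70 ± 0.11 (SE, 95% interval -1.94 to -1.47, limma, adjusted p = 8.33e-07), the 41st most negative of 14542 genes. It stayed called in all 22 alternatives to the main settings, with log2 fold changes from -1.81 to -1.11. Klf15 had the next largest decrease of the 10. The log2 ratio of Zbtb16 to Klf15, picked after these values were seen and so not tested, averaged -1.31 ± 0.19 in CON and -2.44 ± 0.20 in HG libraries (SD, n = 5 per group).

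Klf15 (NCBI Gene 85497), a regulator of fatty acid and amino acid use in heart and skeletal muscle, measured 7.31, 7.61, 7.69, 7.502 and 7.45 FPKM in CON replicates 1 to 5 and 5.87, 5.64, 4.41, 4.51 and 4.81 FPKM in HG replicates 1 to 5. The CON libraries were nearly level, with an SD of 0.146 FPKM, and the HG libraries spread more, with an SD of 0.667 FPKM. No HG library reached the CON range (log2 fold change -0.57 ± 0.08, SE, 95% interval -0.75 to -0.40, limma, adjusted p = 1.83e-04). Per1 (NCBI Gene 287422), a clock repressor with a glucocorticoid-induced promoter, measured 12.2, 13.3, 13.6, 14.6 and 16.2 FPKM in CON and 10.9, 10.3, 8.85, 10.9 and 9.92 FPKM in HG. It varied more among CON libraries than Fkbp5, at a similar mean, and the groups were apart by 1.31 FPKM (log2 fold change -0.45 ± 0.08, SE, 95% interval -0.62 to -0.28, limma, adjusted p = 7.89e-04).

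Tsc22d3 (NCBI Gene 83514) encodes GILZ, a leucine zipper protein that mediates part of the anti-inflammatory action of the hormone, and was the most abundant of the 10. It stood at 19.0, 22.9, 21.3, 21.8 and 21.5 FPKM in CON replicates 1 to 5 and at 16.1, 18.4, 17.8, 17.4 and 15.5 FPKM in HG replicates 1 to 5. HG replicate 2 came within 0.53 FPKM of CON replicate 1 without overlap (log2 fold change -0.32 ± 0.06, SE, 95% interval -0.45 to -0.19, limma, adjusted p = 0.00133). Klf9 (NCBI Gene 117560), a repressor close in sequence to other Krüppel-like factors, measured 2.91, 2.54, 2.84, 2.73 and 2.29 FPKM in CON and 1.85, 2.51, 2.10, 2.11 and 2.41 FPKM in HG, on 96 to 143 reads. CON replicate 5 lay below HG replicates 2 and 5, so the groups overlapped. Its log2 fold change was -0.27 ± 0.10 (SE, 95% interval -0.49 to -0.06, limma, adjusted p = 0.0456), and the call was lost in 7 of the 10 fits that left out a library, namely without CON replicate 1, 2, 3 or 4 or HG replicate 1, 3 or 4 (adjusted p = 0.0598 to 0.106), and in voom on recovered reads (limma, adjusted p = 0.0591), and with no filter (adjusted p = 0.0671).

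Sgk1 (NCBI Gene 29517), a kinase that acts on ion channels and shares targets with Akt, stood at 5.98, 6.08, 6.26, 5.47 and 6.34 FPKM in CON replicates 1 to 5 and at 5.07, 4.67, 4.16, 4.88 and 4.74 FPKM in HG replicates 1 to 5. Every HG library lay below the lowest CON library, by 0.399 FPKM at the closest. The log2 fold change was -0.35 ± 0.07 (SE, 95% interval -0.50 to -0.21, limma, adjusted p = 0.00136).

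The order of the mean levels differed between the groups. In CON the order was Tsc22d3, Per1, Fkbp5, Nr3c1, Klf15, Sgk1, Zbtb16, Klf9, Hsd11b1 and Hsd11b2. Neighbours whose ranges overlapped in CON were Per1 and Fkbp5, Zbtb16 and Klf9, and Hsd11b1 and Hsd11b2. Zbtb16 was above Klf9 in 4 of 5 CON libraries and in 0 of 5 HG libraries. Nr3c1 was below Per1 and Fkbp5 in CON and had the higher mean in HG (10.8 FPKM, against 10.2 FPKM for both), where its range overlapped that of Fkbp5. Klf15 and Sgk1, apart in CON, overlapped in HG.

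**Figure D3:**
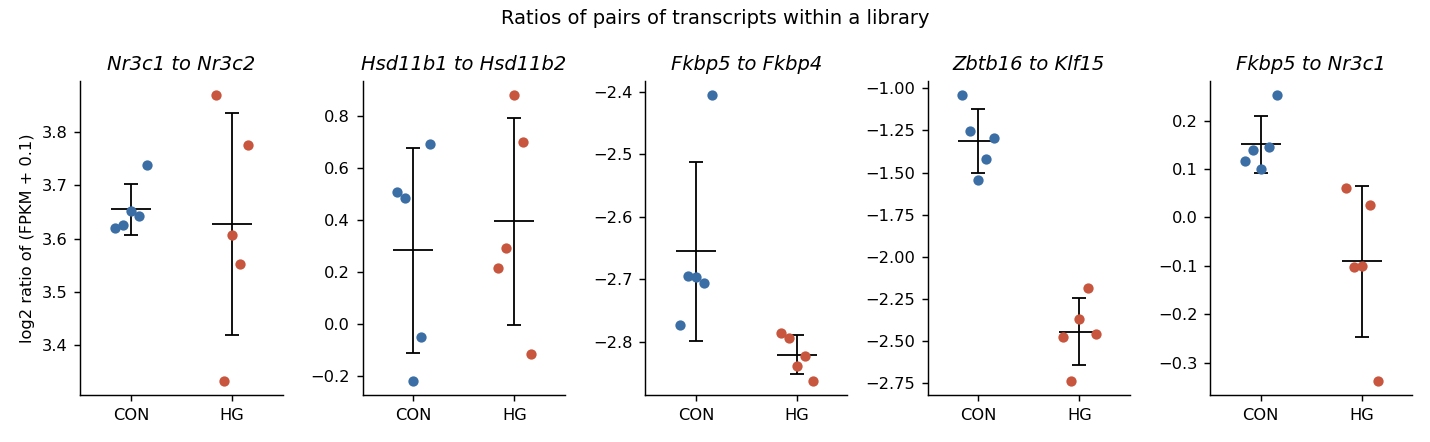
Log2 ratios of (FPKM + 0.1) of 5 pairs of transcripts in each library (points), with the mean and SD of each group (n = 5), on axes that do not start at 0. The ratios of Fkbp5 to Fkbp4, Zbtb16 to Klf15 and Fkbp5 to Nr3c1 are lower in every HG library than in any CON library, while those of the 2 receptors and of the 2 steroid enzymes overlap.

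Next came the proteins that hold, activate or repress the receptor. Of 22 such genes tested, 5 were lower (22.7%, against 11.8% of all genes), 5 were higher (22.7%, against 28.4%) and 12 did not pass the test, with a median log2 fold change of -0.04 against 0.09 over all genes. The lower ones were all chaperones or cochaperones. Hspa8, the constitutive Hsp70, ran from 922 to 1213 FPKM in CON and from 573 to 717 FPKM in HG (log2 fold change -0.77 ± 0.08, SE, limma, adjusted p = 1.68e-05), and Stip1, which links Hsp70 to Hsp90, from 140 to 152 FPKM in CON and from 116 to 131 FPKM in HG (-0.25 ± 0.04, adjusted p = 6.55e-04). The 2 Hsp90 genes differed in call, with a log2 fold change of -0.17 for Hsp90aa1 (limma, adjusted p = 0.0149) and of 0.04 for Hsp90ab1 (adjusted p = 0.475). The higher genes were coregulators, with small differences. Ncoa3, a coactivator, rose by 0.19 on the log2 scale and Hdac3, the deacetylase of the corepressor complex, by 0.19 (limma, adjusted p = 0.0214 and 0.0030).

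Genes that supply or clear steroids were mostly at the detection floor. Of 13 listed, 12 were in the table and 7 were tested. Among the 7, 2 were lower (28.6%, against 11.8% of all genes) and 1 was higher (14.3%, against 28.4%). Cyp11a1, which starts steroid synthesis from cholesterol, ran from 1.33 to 1.77 FPKM in CON and from 0.839 to 1.14 FPKM in HG (log2 fold change -0.61 ± 0.12, SE, limma, adjusted p = 0.00187), and Cyp17a1, a later enzyme, from 0.256 to 0.456 FPKM in CON and from 0.0882 to 0.187 FPKM in HG (-0.93 ± 0.19, adjusted p = 0.00195). Adrenal cortex markers were near 0, as given above. Srd5a1, which reduces steroids, was higher with overlapping groups (log2 fold change 0.48, limma, adjusted p = 0.00446).

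A longer list of genes known to be induced by glucocorticoids in other tissues was mixed. Of 38 listed, 35 were tested, of which 12 were lower (34.3%, against 11.8% of all genes), 5 were higher (14.3%, against 28.4%) and 18 did not pass the test, with a median log2 fold change of -0.19. Sult1a1, a sulfotransferase, had the largest decrease, from 2.18 to 3.30 FPKM in CON to 0.325 to 0.541 FPKM in HG (log2 fold change -2.46 ± 0.15, SE, limma, adjusted p = 8.33e-07). Angptl4, an inhibitor of lipoprotein lipase that PPARs also induce, went the other way, from 0.429 to 0.696 FPKM in CON to 2.17 to 2.45 FPKM in HG (2.01 ± 0.12, adjusted p = 6.36e-07). Lcn2, an iron-carrier binding protein, fell from a mean of 11.3 to 6.82 FPKM, and Mt1, a metallothionein, from 41.3 to 25.5 FPKM (log2 fold change -0.73 and -0.72, limma, adjusted p = 1.68e-04 and 9.24e-04). Pdk4, which restrains glucose oxidation, and Cdkn1c, a cell cycle inhibitor, are also induced by the hormone and were higher in HG, with log2 fold changes of 0.61 and 0.43 (limma, adjusted p = 1.66e-04 and 5.98e-04). These last names were chosen after their values were seen.

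Genes that the receptor represses, chiefly inflammatory ones, showed little. Of 13 listed, 10 were tested, 1 was lower (Cxcl1, a chemokine under 0.3 FPKM, with overlapping groups) and none was higher, and the median log2 fold change was 0.03. Genes annotated with the GO term for response to glucocorticoid, were taken up after the data were seen. Of 120 such genes, 94 were tested, of which 19 were lower (20.2%, against 11.8% of all genes) and 21 higher (22.3%, against 28.4%), and their median log2 fold change was 0.13, against 0.09 over all genes. Only 1 of the 10 genes described above, Hsd11b2, carries this term in the deposited annotation.

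Among 4 genes listed as Klf15 targets, 3 were lower (75.0%, against 11.8% of all genes and 75.0% of the cardiomyocyte markers). None was higher (against 28.4% of all genes). Whether the level of Klf15 or the muscle content took part was not tested. Kcnip2, a subunit of the transient outward potassium channel whose expression Klf15 drives, ran from 14.6 to 32.7 FPKM in CON and from 1.80 to 4.57 FPKM in HG (log2 fold change -2.88 ± 0.28, SE, limma, adjusted p = 1.39e-05). Its CON libraries were widely spread, with replicates 1 and 5 at 32.0 and 32.7 FPKM and the other 3 between 14.6 and 16.5 FPKM, while Klf15 itself was level in CON. Bcat2, of branched-chain amino acid breakdown, was lower by 0.57 on the log2 scale and Slc2a4, the insulin-regulated glucose transporter, by 0.41 (limma, adjusted p = 5.64e-06 and 3.72e-04), and Prodh1, of proline breakdown, stayed uncalled at 0.0022 (adjusted p = 0.991).

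Since Per1 belongs to the clock, the other clock genes were set beside it. Of 18 listed, 17 were tested, 7 were lower (41.2%, against 11.8% of all genes), none was higher (against 28.4%) and 10 did not pass the test, with a median log2 fold change of -0.07. Per2 was lower by 0.30 on the log2 scale and Cry1 by 0.37 (limma, adjusted p = 0.00469 and 3.16e-04), with groups apart in both, as were Npas2 by 0.59 and Nfil3 by 0.24 (adjusted p = 0.0155 and 0.00974). Npas2 was near the floor, with means of 0.37 FPKM in CON and 0.22 FPKM in HG. Among clock outputs, Tef was lower by 0.15 and Hlf by 0.59 with overlapping groups (limma, adjusted p = 0.0463 and 0.0487), whereas the related Dbp (0.19) did not pass the test, nor did Nr1d1 (0.08) and Per3 (0.31). Hlf was also near the floor, with means of 0.18 FPKM in CON and 0.087 FPKM in HG. The hour at which hearts were taken was not used here, as no label gives it. Immediate-early genes such as Fos and Egr1, which respond to handling of tissue and were added after the data were seen, summed to 75.2 to 104 FPKM in CON and to 78.1 to 96.8 FPKM in HG, and 1 of 8 was called, as higher.

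**Figure D4:**
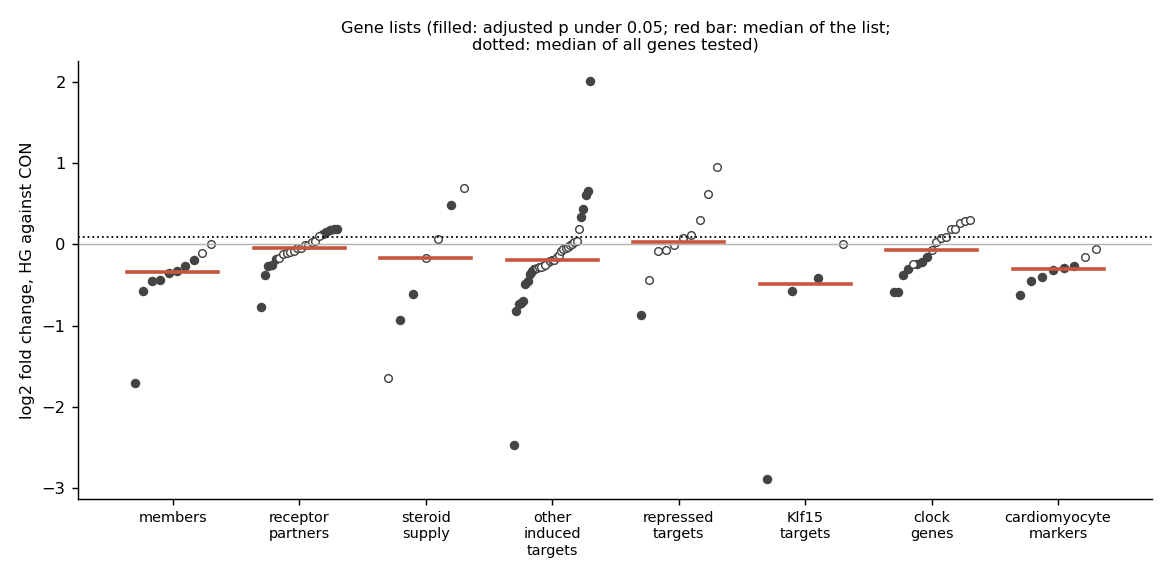
Log2 fold change, HG against CON, of every tested gene of 8 lists (points, filled for an adjusted p under 0.05), with the median of each list (red bar) and of all genes (dotted line, 0.09). The 10 genes described here and the cardiomyocyte markers have medians of -0.34 and -0.30 with no called gene above 0. Klf15 targets (median -0.49), clock genes (-0.07) and repressed targets (0.03) also have none, whereas other induced targets and receptor partners spread to both sides.

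Patterns across the 10 libraries were compared as a description only. Among 11708 other genes averaging 1 FPKM or more, those most like Zbtb16 by Pearson's r of log2(FPKM + 0.1) were Ndufa8, of respiratory complex I (r = 0.993), Oxct1, of ketone body use (r = 0.992), and Lpl, lipoprotein lipase (r = 0.991). Those most like Fkbp5 were Pc, pyruvate carboxylase (r = 0.980), Ppp1r13l, an inhibitor of p53 and NF-kB (r = 0.977), and Dnaja3, a mitochondrial J-domain protein (r = 0.9751). All 6 have lower means in HG, from a log2 fold change of -0.98 for Lpl to -0.23 for Dnaja3, and the 10 points share the 2 groups, so that r mostly follows the difference between them.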

How the data were processed

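Hearts of 5 CON and 5 HG libraries were compared. The authors deposited FPKM per gene, which are reads divided by gene length and library size. The submitters' processing notes name fastp, HISAT2, HTSeq, R 3.2.0 and the rat build mRatBN7.2, and the methods name DESeq for differential expression and speak of pooled RNA of the 10 samples, although values differ by library. FPKM is relative to the rest of a library, so a change in abundant muscle or globin mRNA moves all other values. All per-sample columns were used (0 unused). Groups came from the labels.

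Reads behind the values were worked out from the smallest FPKM steps of each gene. The search accepts only reads whole within 0.02, so that 100% of genes met this is no check of it. On simulated reads drawn around the recovered ones, 97.63% of 18025 genes were recovered exactly. The recovered reads came to 16672876 to 19109844 on genes per library, at which Hsd11b1 rests on 17 to 37 reads. Of 18025 genes, 3483 with a mean under 0.1 FPKM were left out. As the values are FPKM, the test was limma 3.58.1 (with a mean-variance trend and group as the only term) in R 4.3.3 on log2(FPKM + 0.1) with Benjamini-Hochberg adjustment and 95% intervals. On simulated reads with 200 changed genes, it called 190 of the 199 changed genes tested and 6 unchanged ones, of 14531 genes. The simulation gave all genes the same dispersion and changed far fewer genes than the 40.1% called in the data, so it does not cover a broad shift. Ratios were compared by exact permutation, two-sided, over the 252 divisions of 10 libraries, adjusted over 3 ratios, and 2 further ratios picked after the data were seen are given with no test. Intervals of ratios hold the shifts this test does not refuse at 0.05. Tables and plots used Python 3.11.15, numpy 2.4.6, pandas 2.3.3, scipy 1.17.1 and matplotlib 3.10.9.

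The alternatives changed the pseudocount (1 or 0.01), the filter (none, or 1 FPKM on average), the scaling (median-of-ratios factors, quantile normalization, or FPKM without globins), the model (array weights, a replicate block, a fit lacking the trend, voom on recovered reads) or the fold change (ratios of mean FPKM), or left out one library at a time. Division by cardiomyocyte markers was added later.

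All 10 genes are given. From each other list up to 4 genes were named, those with the largest change among genes called with groups apart, and further names were chosen after their values were seen. The genes and the 6 gene lists and 8 marker lists were chosen with earlier results of these data known. Same-numbered libraries did not deviate together (correlation over 0.1 in 1 of 5 pairs).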

Additional observations from a re-analysis of the deposited data

Results flagged for a closer look

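Among 34 groups of 5 values checked (the 10 genes, Nr3c2, Fkbp4 and 5 log2 ratios, in CON and in HG), 4 held a library far from the others, whose gap to its neighbour was past Dixon's 95% critical value for 5 samples. Chance gives this in about 1 of 20 groups, and 3 of the 4 share a library and are not independent. In CON replicate 5, Fkbp4 was 78.2 FPKM against 88.7 to 90.0 FPKM in the other CON libraries. The log2 ratio of Fkbp5 to Fkbp4 was -2.41 there, against -2.77 to -2.70 in the others. The log2 ratio of Nr3c1 to Nr3c2 was 3.74 in the same library, against 3.62 to 3.65. In CON replicate 3, Hsd11b2 was 0.335 FPKM against 0.206 to 0.235 FPKM in the others, a difference of a few reads, as the gene held 7 to 11 reads in a CON library. Liver markers also stood highest in CON replicate 3, and a link with Hsd11b2 was not tested.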

How the results depend on the processing

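Zbtb16 and Klf15 stayed called and lower in all 22 alternatives. Nr3c1, Fkbp5, Per1, Tsc22d3 and Sgk1 did so in all but the division by cardiomyocyte markers, which was added after the data were seen. With that division, which called 10839 genes, 95.8% of them higher, 3 of the 10 genes were called and the groups of 1 did not overlap, and Nr3c1 (0.13), Klf9 (0.0364) and Hsd11b2 (0.11) turned above 0. The cause was not tested. Leaving out each library gave 7 to 8 called genes, 7 to 8 with groups apart, 1 past the study threshold and 14 to 20 other induced targets.

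Uncalled values near 0 changed sign. The log2 fold change of Hsd11b1 was -0.00090 with a pseudocount of 1, -0.0606 with median-of-ratios factors, -0.0697 with quantile normalization and -0.0037 without hemoglobin genes, and -0.11 to 0.0828 over libraries left out, and that of Hsd11b2 was -0.22 to 0.07.

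The replicate block gave 7 called genes (Klf9 lost, adjusted p = 0.107), 5096 called genes in all against 5836, and no library correlated best with its own number. For ratios, exact permutation by sign changes of 5 paired differences cannot go below p = 0.0625, which Fkbp5 to Fkbp4 reached at -0.17, so the pairing says nothing of stability. Over libraries left out, this ratio differed by -0.20 to -0.10, Nr3c1 to Nr3c2 by -0.0886 to 0.045, and Hsd11b1 to Hsd11b2 by -0.0131 to 0.24. Depth limits Hsd11b1 and Hsd11b2, with at most 37 and 12 reads.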
